A study of Mus musculus with 9 samples.

Results

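Of 10 regulators of alternative splicing looked up on the array, 8 were found, with 13 probes among the 25697 probes and 18120 gene symbols of the whole array. They fall into an epithelial group (*Rbm35a*, 1 probe), a neural group (*Ptbp2*, *Elavl2*, *Elavl3* and *Elavl4*, 7 probes) and a broadly expressed group (*Ptbp1*, *Mbnl1* and *Qk*, 5 probes). *Rbm35b* and *Nova1*, the other epithelial and neural regulators of the list, were not analysed here. Probes were taken by the gene symbol given in the deposited table. *Rbm35a* was chosen on its high signal in the otic vesicle on these same arrays, so its levels are a description with no test.

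Splicing regulators bind RNA near alternative exons and set whether an exon is kept or skipped, and many of them work in 1 kind of tissue. *Rbm35a* and *Rbm35b*, named *Esrp1* and *Esrp2* today, encode RNA-binding proteins of epithelial cells that favor epithelial isoforms, such as the epithelial form of the FGF receptor FGFR2. The ELAVL (Hu) proteins bind AU-rich and U-rich RNA and, apart from the ubiquitous ELAVL1, are known as early markers of neurons. PTBP1 represses neuronal exons in most cells, and PTBP2 takes its place as neurons form. MBNL1 and QKI act in muscle, glia and many other tissues.

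The study compared 3 tissues of CD-1 mouse embryos at E10.5, when the otic vesicle (OV) is a closed epithelial sac beside the hindbrain. These were pooled OVs, periotic tissue, which per the methods holds mesenchyme and hindbrain, and whole embryos without the greater otic region, called embryo-minus-otic here. Each group had 3 pools, and each pool was hybridized to 1 array. The methods name 3 litters, while the labels do not tie a pool number to a litter, so the spread between pools may be in part technical. No group was a single cell type: an OV pool can hold delaminating neuroblasts, and the embryo-minus-otic pools hold every other epithelium and the rest of the nervous system.

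Values are log2 signals after quantile normalization over the 9 arrays, and fold Δ is taken on that scale. A detection p under 0.01 counted as above background, and *q* is limma's p-value adjusted by Benjamini-Hochberg over all 25697 probes. On each array 43.9% to 47.3% of probes were above background. The labelled tissue was borne out by otic markers, of which 13 of 16 probes were higher in OV than in either other group, with all 10 genes of the list among them. Of all probes, 5.07% were higher in OV than in periotic tissue and 5.89% than in embryo-minus-otic tissue. One OV pool, replicate 1, stood apart in its summed signal of 11 muscle and heart probes, 1240 against 604 and 615 in the other OV pools and 12270 to 14430 in the embryo-minus-otic pools. Mesenchyme markers, 17 probes for 12 genes, summed to 2684 to 3010 in OV and 4491 to 4751 in periotic tissue. In the embryo-minus-otic pools the sum was 6231 to 7986. Against periotic tissue 4 of these probes were lower in OV and 13 gave no call, where 5.15% of all probes were lower. *Vim* had the largest of these differences, 8.83 against 10.84, while *Twist1* read 8.24 and 8.25. *Vim* was the brightest of the 17 probes in periotic tissue, so it weighs most in the periotic sum. In embryo-minus-otic tissue *Vim* read 10.13, against the order of the sums. Against embryo-minus-otic tissue 15 were lower in OV, where 5.51% of all probes were lower. Member calls that depend on the OV replicate 1 pool are named where they are given. For calls of other genes that pool is named only for *Cugbp2*.

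Of the 13 probes, 10 were above background on at least 1 array. The probes for *Ptbp2* and *Qk*, and 1 of the 2 for *Mbnl1*, were above background on none of the 9 arrays, so these data give no level for *Ptbp2* or *Qk* in any of the tissues. For *Ptbp2* the 9 values lay between 5.58 and 5.99, below the 6.14 to 6.24 at which probes rose above background on these arrays.

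*Rbm35a*, on chromosome 4, was brightest in OV, dimmer in embryo-minus-otic tissue and dimmest in periotic tissue. Its log2 signals were 11.49, 11.65 and 11.33 in the OV pools. In the embryo-minus-otic pools they were 9.01, 8.53 and 8.56, and in the periotic pools 7.69, 7.09 and 7.63. No array of a group reached the values of another group, and the probe was above background on all 9 arrays. The deposited signals before normalization kept the same order, with 3248, 3159 and 2279.5 in OV, 475, 435 and 309.9 in embryo-minus-otic tissue and 189, 147 and 216 in periotic tissue.

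As group means, *Rbm35a* had 11.49 ± 0.16 in OV, 8.70 ± 0.27 in embryo-minus-otic tissue and 7.47 ± 0.33 in periotic tissue (SD, n = 3). The OV fold Δ was 16.2 against periotic tissue, the 4th largest of all probes, and 6.93 against embryo-minus-otic tissue, the 10th largest. Between the non-otic groups the embryo-minus-otic mean was 2.34-fold higher, and 102 probes of the array were lower still in periotic tissue by this difference. In pooled tissue, fewer cells of a type and less RNA per cell cannot be told apart.

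The summed signal of pan-epithelial markers followed the order of groups of *Rbm35a*. Their 16 probes for 10 genes summed to a normalized signal of 5181 to 5422 in the OV pools, 1440 to 1656 in the embryo-minus-otic pools and 1108 to 1289 in the periotic pools. Of these probes 14 were higher in OV than in periotic tissue and 15 than in embryo-minus-otic tissue, against 5.07% and 5.89% of all probes. Between the non-otic groups 3 were lower in periotic tissue and 13 gave no call, against 2.95% of all probes lower. *Prss8*, *Marveld3*, *Ap1m2*, *Cldn3* and *Rab25* are among the paper's top-ranked probes, in part from these arrays. Their OV signal is thus no independent support. In OV, 14 of these 16 probes were above background on all arrays. In periotic tissue *Cldn3*, *Cldn7*, *Crb3*, *Marveld3*, *Rab25* and *St14* had no probe above background, while the probes for *Cdh1* (7.35) and *Cldn4* (7.235) and 1 of 2 for *Prss8* (6.46) were above background on all 3 arrays, as *Rbm35a* was. The part of epithelial content in the *Rbm35a* difference was not tested.

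The probes of other genes whose pattern was most like that of *Rbm35a*, by Pearson's r over the 9 arrays among 11849 probes, were those for *Cldn4* (r = 0.994), *Fgf10* (0.993 for each of 2 probes), *Cdh1* (0.993) and *Gstt3* (0.992). *Cldn4* encodes a tight junction claudin, *Cdh1* the epithelial cadherin and *Fgf10* a growth factor that signals through FGFR2. Each of these 5 probes followed the same order of groups. For *Cldn4* the means were 10.22 in OV, 8.10 in embryo-minus-otic tissue and 7.235 in periotic tissue. The 9 arrays form 3 groups, so these coefficients mostly describe 3 group means.

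**Figure D1:**
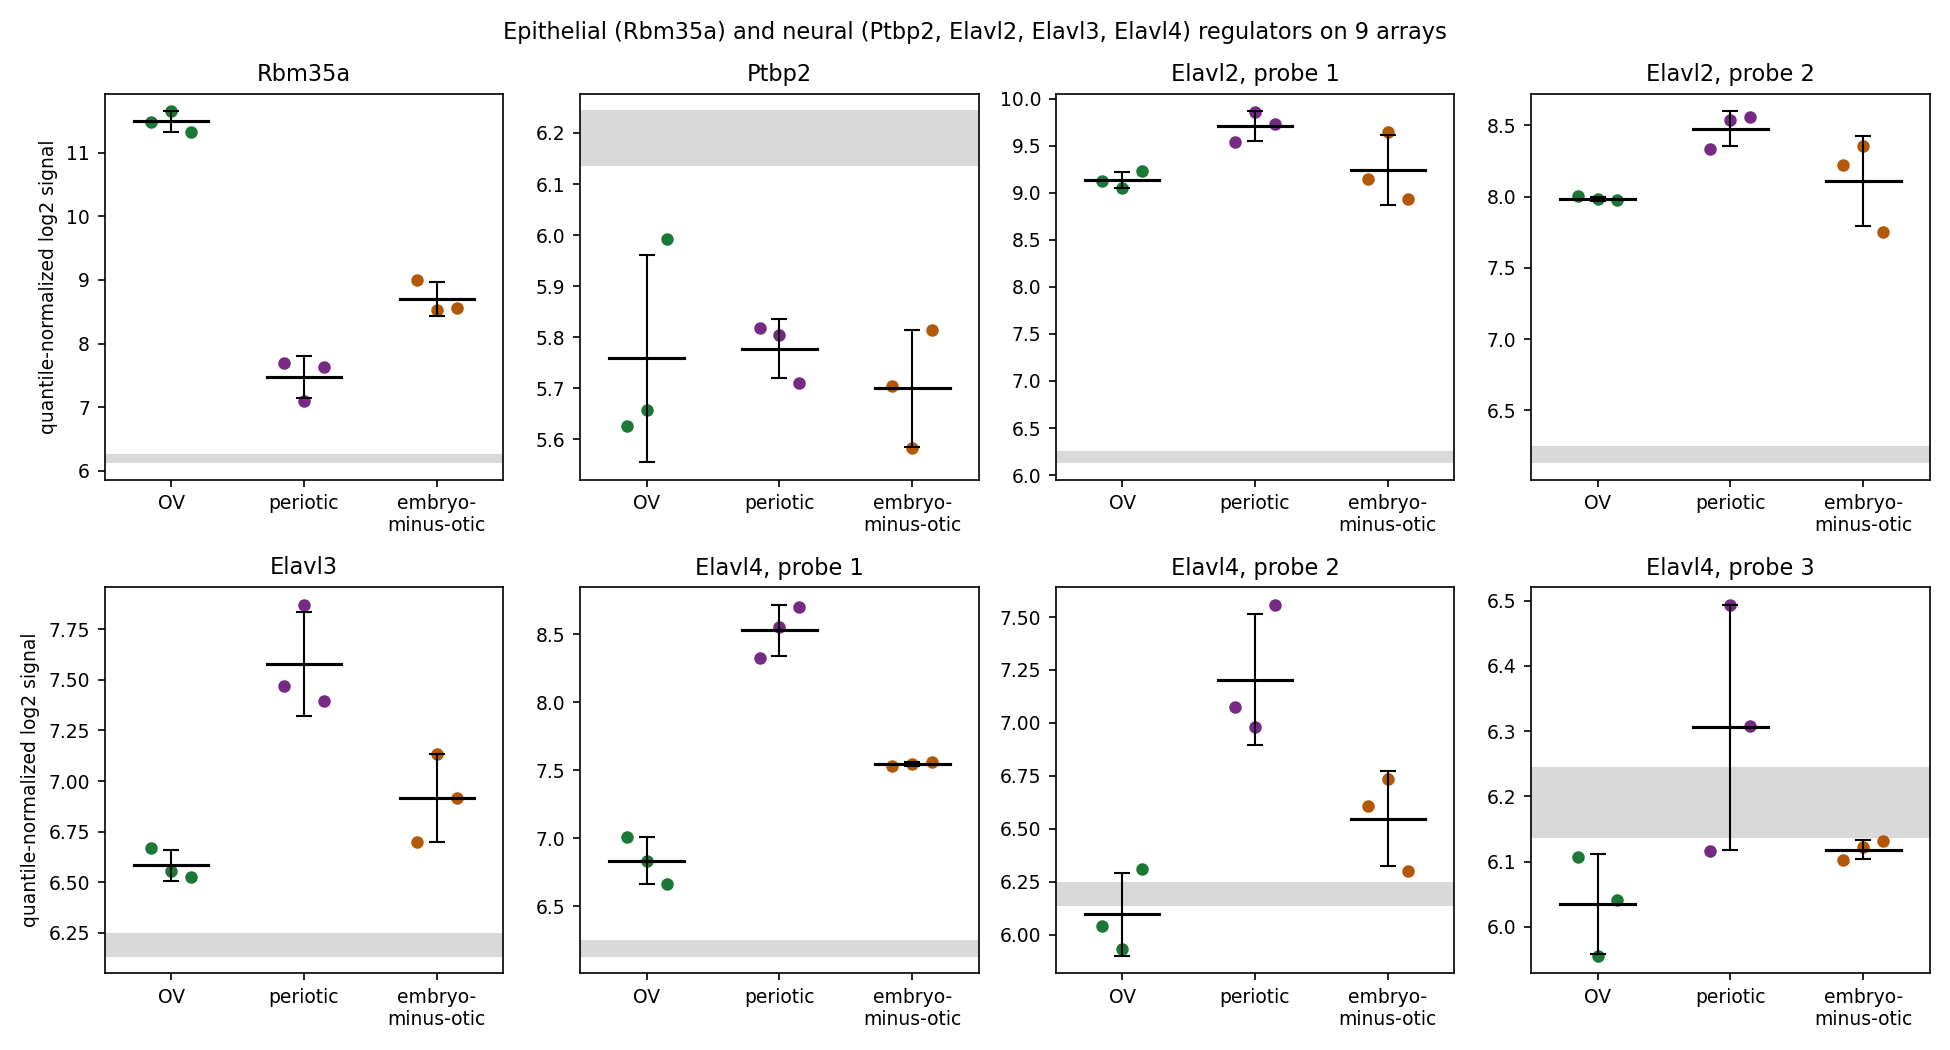
Quantile-normalized log2 signal (vertical axis, a separate scale in each panel) of the epithelial and neural regulator probes on the 9 arrays, with a point per array, the group mean as a horizontal line and the SD as the error bar (n = 3). The grey band spans the lowest signals above background on the arrays, and *Rbm35a* sits highest in OV while *Elavl3* and *Elavl4* probes 1 and 2 sit highest in periotic tissue.

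The *Elavl* probes ran the other way. Among the 12 probes of members other than *Rbm35a*, 9 of them above background on at least 1 array, 5 were lower in OV than in periotic tissue, and all 5 were for *Elavl* genes. One probe, for *Ptbp1*, was higher. Over the whole array, 5.15% of probes were lower in OV and 5.07% were higher in this comparison. The median difference of the 12 probes was -0.16, against -3.7e-05 over all probes.

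*Elavl4* (HuD), a neuronal RNA-binding protein gene on chromosome 4, gave the widest separation. Its brightest probe, probe 1, had log2 signals of 7.01, 6.83 and 6.66 in OV, 7.53, 7.55 and 7.56 in embryo-minus-otic tissue and 8.32, 8.56 and 8.70 in periotic tissue. All 9 arrays were above background, and the groups did not overlap. OV was 3.23-fold below periotic tissue (difference -1.69 ± 0.11 SE, *q* = 2.24e-08) and 1.64-fold below embryo-minus-otic tissue (-0.71 ± 0.11 SE, *q* = 0.000287). Periotic tissue was 1.97-fold above embryo-minus-otic tissue (0.98 ± 0.11 SE, *q* = 2.65e-05), so every step in the order periotic tissue, embryo-minus-otic, OV passed the threshold. With median in place of quantile normalization, the step between OV and embryo-minus-otic tissue had *q* = 0.0556.

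The 3 *Elavl4* probes differed in how much they resolved. Probe 2 was near background in OV, with 6.04, 5.93 and 6.31 and only replicate 3 above background. It had 6.61, 6.73 and 6.30 in embryo-minus-otic tissue and 7.07, 6.98 and 7.56 in periotic tissue. Periotic arrays lay above all others, while OV replicate 3 lay above embryo-minus-otic replicate 3. Its OV level was 2.16-fold below periotic tissue (*q* = 8.25e-05), and 1.37-fold below embryo-minus-otic tissue without passing the threshold (*q* = 0.0702). Periotic tissue was 1.58-fold above embryo-minus-otic tissue (*q* = 0.0146), a call lost without periotic tissue replicate 3 (*q* = 0.0606) or without embryo-minus-otic replicate 3 (*q* = 0.0736), and with neqc or median normalization (*q* = 0.0756 and 0.0562).

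Probe 3 of *Elavl4* rose above background only in 2 periotic arrays, at 6.49 and 6.31. Periotic tissue was at least 1.08-fold above OV (*q* = 0.115) and at least 1.06-fold above embryo-minus-otic tissue (*q* = 0.392), bounds set against the lowest signal above background on the dim arrays.

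*Elavl3* (HuC), on chromosome 9 and likewise a gene of newly formed neurons, had 1 probe with the same order of groups. It read 6.67, 6.55 and 6.53 in OV, 6.70, 7.13 and 6.92 in embryo-minus-otic tissue and 7.47, 7.87 and 7.40 in periotic tissue. The groups did not overlap, although the lowest embryo-minus-otic array stood only just above the highest OV array. OV was 1.99-fold below periotic tissue (-0.995 ± 0.13 SE, *q* = 5.31e-05). The difference between OV and embryo-minus-otic tissue was -0.33 ± 0.13 SE and did not pass the threshold (*q* = 0.128). Periotic tissue was 1.58-fold above embryo-minus-otic tissue (0.66 ± 0.13 SE, *q* = 0.00458).

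The 250 bases before a RefSeq start of *Elavl3* and of *Elavl4* are shown because both genes changed in the same direction in 2 comparisons. They are on the minus strand of GRCm38.p6, at chr9:22052024-22052273 and chr4:110287528-110287777, and are written 5′ to 3′ as RefSeq gives them, ending at the base before the start. Capitals mark the E-box CAGCTG, the sequence that proneural bHLH factors are known to bind.
Elavl3: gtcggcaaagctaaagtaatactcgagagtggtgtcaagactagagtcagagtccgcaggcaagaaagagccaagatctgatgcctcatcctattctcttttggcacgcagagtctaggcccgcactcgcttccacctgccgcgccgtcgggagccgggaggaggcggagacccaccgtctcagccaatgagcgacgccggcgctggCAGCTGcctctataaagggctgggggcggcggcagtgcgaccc
Elavl4: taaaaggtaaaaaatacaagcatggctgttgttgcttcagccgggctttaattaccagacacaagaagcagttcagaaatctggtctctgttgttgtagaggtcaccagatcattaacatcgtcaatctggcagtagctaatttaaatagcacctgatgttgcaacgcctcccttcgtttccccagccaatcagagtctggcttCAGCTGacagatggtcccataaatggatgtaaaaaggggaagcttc

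The E-box lay 43 to 38 bases before the start of *Elavl3* and 46 to 41 bases before this start of *Elavl4*. Both strands of 3 motifs were searched, CAGCTG and 2 parts of the RE1 element that the neuronal repressor REST binds, CAGCACC and GGACAG. The E-box reads the same on both strands. Of 32851 such windows in the RefSeq table, 13% held CAGCTG, 5.73% held CAGCACC and 18.7% held GGACAG. *Elavl4* has 4 windows in the table, and CAGCTG was in 2 that overlap and share the match, of which the upstream one is shown. The window shown is the first from upstream that held any of the 3 motifs, so for *Elavl4* it was chosen for its match. The most upstream window of *Elavl4* held none of them. *Elavl3* has 1 window. Neither RE1 part was in a window of *Elavl3* or *Elavl4*. Among the 6 windows of *Elavl2*, none held CAGCTG and 1 held GGACAG. These are matches of letters, not binding sites.

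*Elavl2* (HuB), which is also made in germ cells, was called by both of its probes, but narrowly. Probe 1 had 9.12, 9.05 and 9.23 in OV, 9.15, 9.64 and 8.93 in embryo-minus-otic tissue and 9.54, 9.86 and 9.73 in periotic tissue. The OV and periotic arrays did not overlap, while the embryo-minus-otic arrays spanned the OV values, with replicate 2 among the periotic values. Probe 2 read 8.0004, 7.98 and 7.97 in OV, 8.22, 8.35 and 7.75 in embryo-minus-otic tissue and 8.34, 8.54 and 8.56 in periotic tissue. Both probes are annotated to transcript variant 3 of the gene, on chromosome 4.

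OV lay below periotic tissue by 1.49-fold with *Elavl2* probe 1 (-0.57 ± 0.15 SE, *q* = 0.0167) and by 1.41-fold with probe 2 (-0.49 ± 0.13 SE, *q* = 0.0197). Both calls were lost without OV replicate 1 (*q* = 0.0545 and 0.0527), without OV replicate 2 (*q* = 0.0755 and 0.0646) and without periotic tissue replicate 2 (*q* = 0.0853 and 0.0774). The call of probe 2 was also lost without OV replicate 3 (*q* = 0.062) and without periotic tissue replicate 3 (*q* = 0.0756). With neqc or median normalization neither probe passed (*q* from 0.0652 to 0.185), and probe 2 did not pass without normalization (*q* = 0.062). Against embryo-minus-otic tissue neither probe passed in OV (*q* = 0.772 and 0.683) or in periotic tissue (*q* = 0.0812 and 0.125). Without embryo-minus-otic replicate 2, periotic tissue was higher than that group with both probes (0.67, *q* = 0.0015, and 0.49, *q* = 0.0316).

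The 5 probes of other genes most like *Elavl2* probe 1 over the 9 arrays were for *Pcyox1* (Pearson's r = 0.964), *Sgtb* (0.9615), *Pias1* (0.959), *Rbm18* (0.946) and *Kns2* (0.942). For *Pcyox1* the means were 9.265 in OV, 9.75 in periotic tissue and 9.43 in embryo-minus-otic tissue. None of the 5 is among the neuronal markers listed below.

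**Figure D2:**
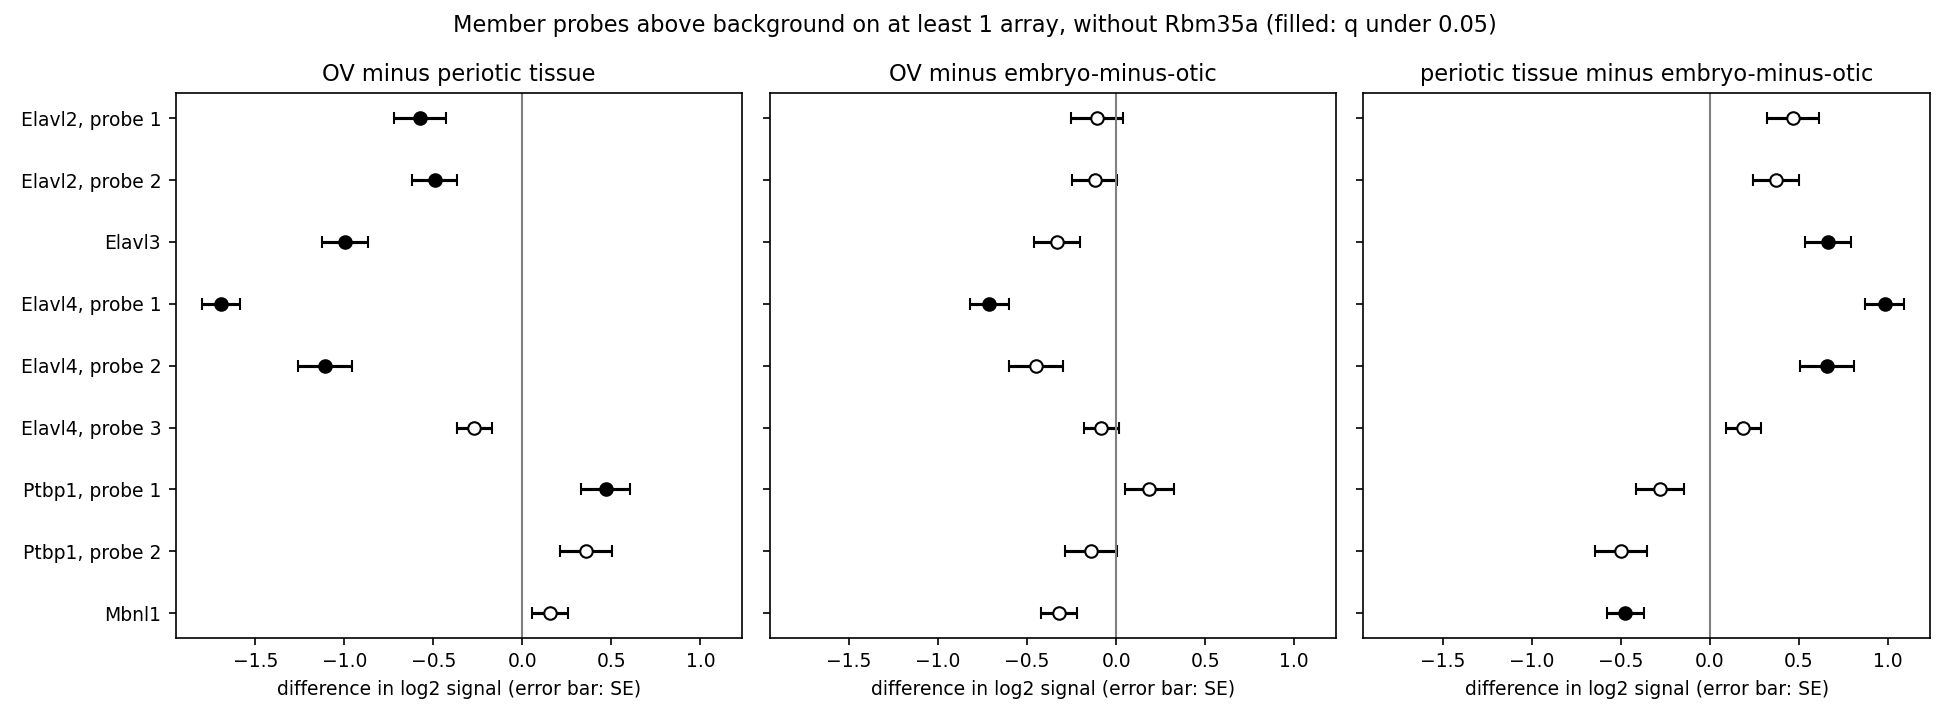
Difference in log2 signal (horizontal axis) of the 9 member probes other than *Rbm35a* that were above background on at least 1 array, with the SE of limma's fit as the error bar and filled points for *q* under 0.05. All 6 *Elavl* probes lie below 0 in OV minus periotic tissue, 5 of them filled, and the largest difference is -1.69 for *Elavl4* probe 1.

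Against embryo-minus-otic tissue, OV differed in 1 of the 12 member probes, *Elavl4* probe 1, which was lower. No member probe was higher. Over the whole array 5.51% of probes were lower in OV and 5.89% higher. At an unadjusted p under 0.05 the members counted 4 lower and 0 higher, by limma. The median difference of the 12 probes was -0.11, against 0.0043 over all probes.

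Between the non-otic groups, 3 member probes were higher in periotic tissue, those for *Elavl3* and for *Elavl4* probes 1 and 2, and 1 was lower, for *Mbnl1*. Over the whole array 2.86% of probes were higher in periotic tissue and 2.95% lower. The median of the 12 probes was 0.13, against 0.0066 over all probes. The 3 comparisons share arrays, so their counts are not independent of each other.

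Part of the neuronal markers and part of the neural progenitor markers moved with the *Elavl* probes. Summed over 24 probes for 18 neuronal genes, the normalized signal was 2876 to 3672 in OV, 4126 to 4673 in embryo-minus-otic tissue and 5311 to 6820 in periotic tissue. Of these probes 9 were lower and 1 higher in OV than in periotic tissue, against 5.15% and 5.07% of all probes. The other 14 gave no call. Against embryo-minus-otic tissue 7 were lower and 1 higher in OV, against 5.51% and 5.89% of all probes, and 16 gave no call. Only 1 *Elavl* probe, probe 1 of *Elavl4*, was called there. Between the non-otic groups 8 were higher and 0 lower in periotic tissue, against 2.86% and 2.95% of all probes. There limma gave 11 probes in all at an unadjusted p under 0.05. *Stmn2*, a microtubule regulator of growing axons, fell from 9.55 in periotic tissue to 6.72 in OV (*q* = 6.85e-07). *Neurod1*, a bHLH factor of otic neuroblasts, was the 1 that was higher in OV, at 8.57 against 6.76 (*q* = 2.94e-08).

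The defining neuronal markers *Tubb3*, *Nefl*, *Nhlh1*, *Nhlh2* and *Snap25* were above background in no group, and *Mapt* and *Syt1* had no probe above background in OV. The 14 progenitor probes for 9 genes summed to 3260 to 3749 in OV, 3959 to 4434 in embryo-minus-otic tissue and 8138 to 9813 in periotic tissue. Of these, 9 were lower and 0 higher in OV than in periotic tissue, against 5.15% and 5.07% of all probes. Against embryo-minus-otic tissue 4 were lower and 2 higher in OV, where the shares of all probes were 5.51% and 5.89%. In periotic tissue 7 were higher and 0 lower than in embryo-minus-otic tissue, against 2.86% and 2.95% of all probes. The brighter probe of *Hes5*, a Notch target of neural progenitors, read 6.29 in OV, 9.13 in embryo-minus-otic tissue and 10.57 in periotic tissue. Both probes that were higher in OV than in embryo-minus-otic tissue were for *Sox21*, a SoxB transcription factor gene, by 0.40 (*q* = 0.0236) and 0.51 (*q* = 0.00663) on the log2 scale, against the order of the *Elavl* probes. How much of the *Elavl* differences goes with neural content was not tested.

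*Ptbp1*, on chromosome 10, had 2 probes that did not give the same call. The probe annotated to transcript variant 2, probe 1, read 12.00, 11.99 and 12.48 in OV, 12.12, 12.02 and 11.77 in embryo-minus-otic tissue and 11.77, 11.49 and 11.80 in periotic tissue. OV lay above periotic tissue on every array, by 1.38-fold (0.47 ± 0.14 SE, *q* = 0.0401). The call rested on single pools: it was lost without OV replicate 3 (*q* = 0.217), without periotic tissue replicate 2 (*q* = 0.188) and without periotic tissue replicate 1 (*q* = 0.0747). It was also lost with neqc, median or no normalization (*q* = 0.113, 0.284 and 0.412). Neither OV nor periotic tissue differed from embryo-minus-otic tissue past the threshold (*q* = 0.517 and 0.336).

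Probe 2 of *Ptbp1*, annotated to variant 1, had 6.94, 7.25 and 7.25 in OV, 7.05, 7.71 and 7.10 in embryo-minus-otic tissue and 6.83, 6.78 and 6.75 in periotic tissue. Here too OV lay above every periotic array, but the difference of 0.36 ± 0.15 SE did not pass (*q* = 0.171). The highest value, 7.71, was that of embryo-minus-otic replicate 2, which was also the highest of its group for both *Elavl2* probes and *Elavl3*. Periotic tissue was 1.41-fold below embryo-minus-otic tissue with *q* = 0.0604.

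*Mbnl1*, a regulator of the fetal-to-adult switch in muscle splicing, had 1 probe above background, on all 9 arrays. It read 9.37, 9.28 and 9.33 in OV, 9.62, 9.59 and 9.72 in embryo-minus-otic tissue and 9.40, 8.998 and 9.11 in periotic tissue. The embryo-minus-otic arrays lay above all others. The difference to periotic tissue was 1.39-fold (*q* = 0.00934) and was lost without periotic tissue replicate 2 (*q* = 0.0632) and with median or no normalization (*q* = 0.589 and 0.749). The difference to OV was 1.25-fold and did not pass (*q* = 0.0565), and OV and periotic tissue had *q* = 0.493. Muscle and heart markers were high in the same group, with a summed signal of 12270 to 14430 against 599 to 626 in periotic tissue, and their part in the *Mbnl1* difference was not tested.

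**Figure D3:**
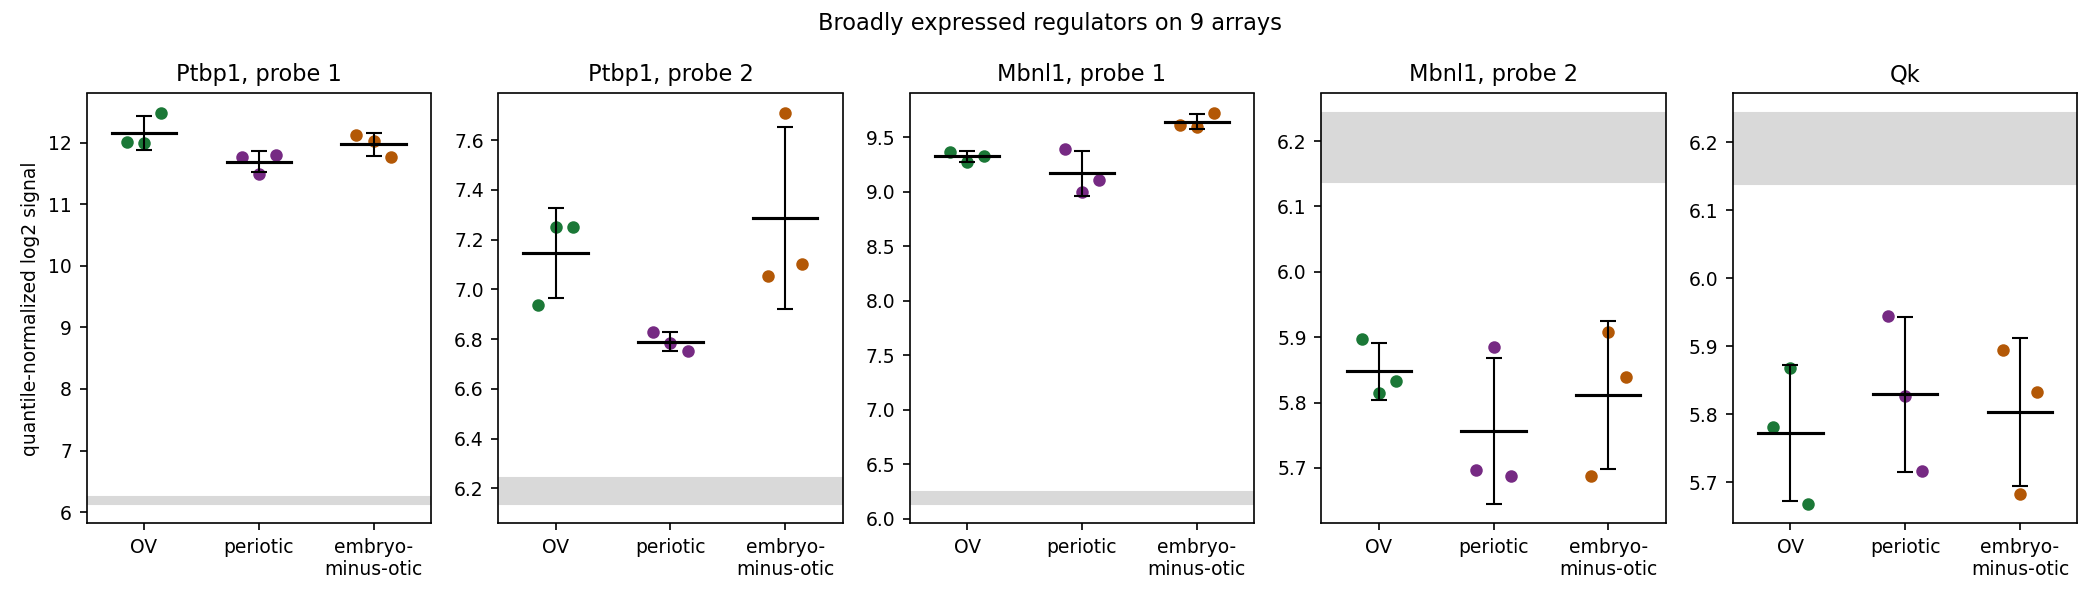
Quantile-normalized log2 signal (vertical axis, a separate scale in each panel) of the 5 probes for *Ptbp1*, *Mbnl1* and *Qk* on the 9 arrays, with a point per array, the group mean as a horizontal line and the SD as the error bar (n = 3). *Ptbp1* probe 1 and *Mbnl1* probe 1 lie well above the grey band of lowest signals above background, while *Mbnl1* probe 2 and *Qk* lie below it on every array.

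To set epithelial against neural regulators on one scale, each probe was centred on its mean over the 9 arrays and the mean of the 7 neural probes was subtracted from the value of *Rbm35a*. The result was 2.58, 2.83 and 2.395 in the OV pools, -0.11, -0.75 and -0.47 in the embryo-minus-otic pools and -1.81, -2.61 and -2.055 in the periotic pools. The group means were 2.60 ± 0.22, -0.44 ± 0.32 and -2.16 ± 0.41 (SD, n = 3). These values are a description with no test. Most of the range came from *Rbm35a*, the only epithelial probe, whose centred mean ran from 2.27 in OV to -1.75 in periotic tissue.

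The neural part averages 7 probes, among them the *Ptbp2* probe, above background on no array, and *Elavl4* probe 3, above it on 2. Its mean was -0.31, -0.39 and -0.28 in OV, -0.10, 0.06 and -0.19 in embryo-minus-otic tissue and 0.28, 0.48 and 0.46 in periotic tissue. The groups did not overlap in either part, and the embryo-minus-otic pools stood between the other groups in both.

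**Figure D4:**
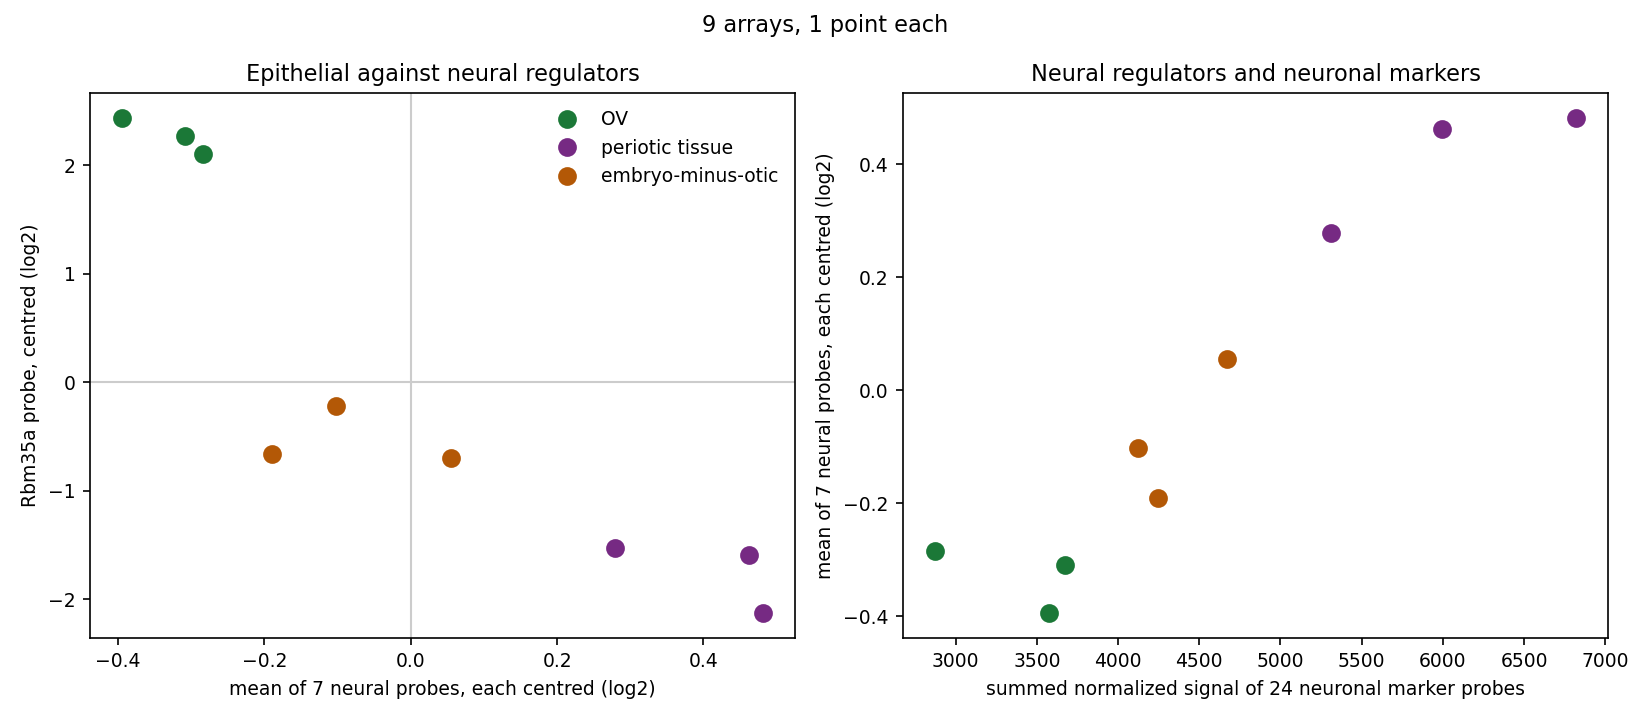
Left, the centred log2 signal of *Rbm35a* (vertical axis) against the mean centred log2 signal of the 7 neural probes (horizontal axis), and right, that neural mean (vertical axis) against the summed normalized signal of 24 neuronal marker probes (horizontal axis), with 1 point per array. OV pools have *Rbm35a* above 2 and a neural mean of -0.39 to -0.28, and periotic pools have the highest neural means and marker sums, 5311 to 6820.

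Other tissue-specific splicing regulators were counted from a list of 21 genes with 38 probes. In OV, 6 probes for 3 genes were higher and 3 lower than in periotic tissue, against 5.07% and 5.15% of all probes. Against embryo-minus-otic tissue 5 for 3 genes were higher and 3 lower in OV, against 5.89% and 5.51% of all probes. Between the non-otic groups 2 were higher and 4 lower in periotic tissue, against 2.86% and 2.95% of all probes. The medians of the list were -0.06, -0.02 and -0.02, near those of all probes.

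*Rbpms*, an RNA-binding protein gene with 3 probes, was higher in OV than in periotic tissue with each of them. Its brightest probe read 10.05, 10.0025 and 10.16 in OV, 9.48, 9.53 and 9.68 in embryo-minus-otic tissue and 8.76, 8.59 and 8.51 in periotic tissue. The OV mean was 2.72-fold above periotic tissue (*q* = 2.69e-08) and 1.42-fold above embryo-minus-otic tissue (*q* = 0.00176). Against embryo-minus-otic tissue a second probe was called (*q* = 0.00292) and the third was not (*q* = 0.195). Of 17 alternative settings, 16 kept the call of the brightest probe there (*q* up to 0.0546) and 16 that of the second (*q* up to 0.273). The brightest probe had the order of groups seen for *Rbm35a*. The related *Rbpms2* moved the other way. It was 1.36-fold lower in OV than in periotic tissue (-0.45 ± 0.09 SE, *q* = 0.00465), a call kept in 16 of 17 alternatives (*q* up to 0.0996). It was 1.33-fold lower than in embryo-minus-otic tissue (*q* = 0.00894), a call kept in 15 of 17 (*q* up to 0.308).

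*Mbnl2*, a paralog of *Mbnl1* on chromosome 14, had 2 probes, both higher in OV than in periotic tissue. Its brightest probe read 9.92, 9.78 and 9.89 in OV, 9.36, 9.14 and 9.43 in embryo-minus-otic tissue and 8.91, 8.75 and 9.02 in periotic tissue. OV was 1.96-fold above periotic tissue (*q* = 5.33e-06) and 1.47-fold above embryo-minus-otic tissue (*q* = 0.00138). The other probe was 1.55-fold above periotic tissue (*q* = 0.00347) and 1.23-fold above embryo-minus-otic tissue without a call (*q* = 0.186). *Rod1*, which encodes the PTB paralog PTBP3, had 1 of 2 probes above background. It read 7.55, 7.50 and 8.05 in OV and 7.37, 6.84 and 7.27 in periotic tissue, 1.46-fold higher in OV (*q* = 0.0317). OV replicate 3 stood apart, and this call was not run on the alternative settings. There was no call against embryo-minus-otic tissue (*q* = 0.428).

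*A2bp1* (*Rbfox1*), a regulator of neuronal and muscle exons, had 1 of 3 probes above background. It was above background on no OV array and on all 6 non-otic arrays, at 6.48, 7.09 and 6.74 in periotic tissue and 6.68, 7.09 and 6.60 in embryo-minus-otic tissue. It was at least 1.48-fold lower in OV than in periotic tissue (*q* = 0.000687) and at least 1.51-fold lower than in embryo-minus-otic tissue (*q* = 0.000556). *Nova2*, a neuronal regulator, was near background in all groups, with means of 6.07 in OV, 6.13 in periotic tissue and 6.14 in embryo-minus-otic tissue for the brighter of its 2 probes (*q* = 0.814, 0.762 and 0.990).

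*Cugbp2* (*Celf2*) read highest in periotic tissue and lowest in embryo-minus-otic tissue, at 10.17 ± 0.017 and 9.42 ± 0.059, with OV between them at 9.87 ± 0.098 (SD, n = 3). Periotic tissue was 1.68-fold above embryo-minus-otic tissue (*q* = 2.99e-05) and OV 1.36-fold above it (*q* = 0.00189). OV was below periotic tissue by 0.30 on the log2 scale (-0.30 ± 0.085 SE, *q* = 0.0309), a call lost when any 1 of OV replicates 1 and 2 or of the 3 periotic pools was left out, with *q* from 0.0725 to 0.136, and with median normalization, no normalization or an intensity trend in the prior (*q* = 0.269, 0.508 and 0.109). The other *Cugbp2* probe gave no call there (*q* = 0.565). *Cugbp1* (*Celf1*) was lower in OV than in embryo-minus-otic tissue with 1 of 4 probes (-0.36 ± 0.11 SE, *q* = 0.0407), and that call was lost in 10 of 17 alternatives. *Elavl1*, the ubiquitous ELAVL gene, gave no call in any comparison (*q* = 0.315, 0.449 and 0.905).

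**Figure D5:**
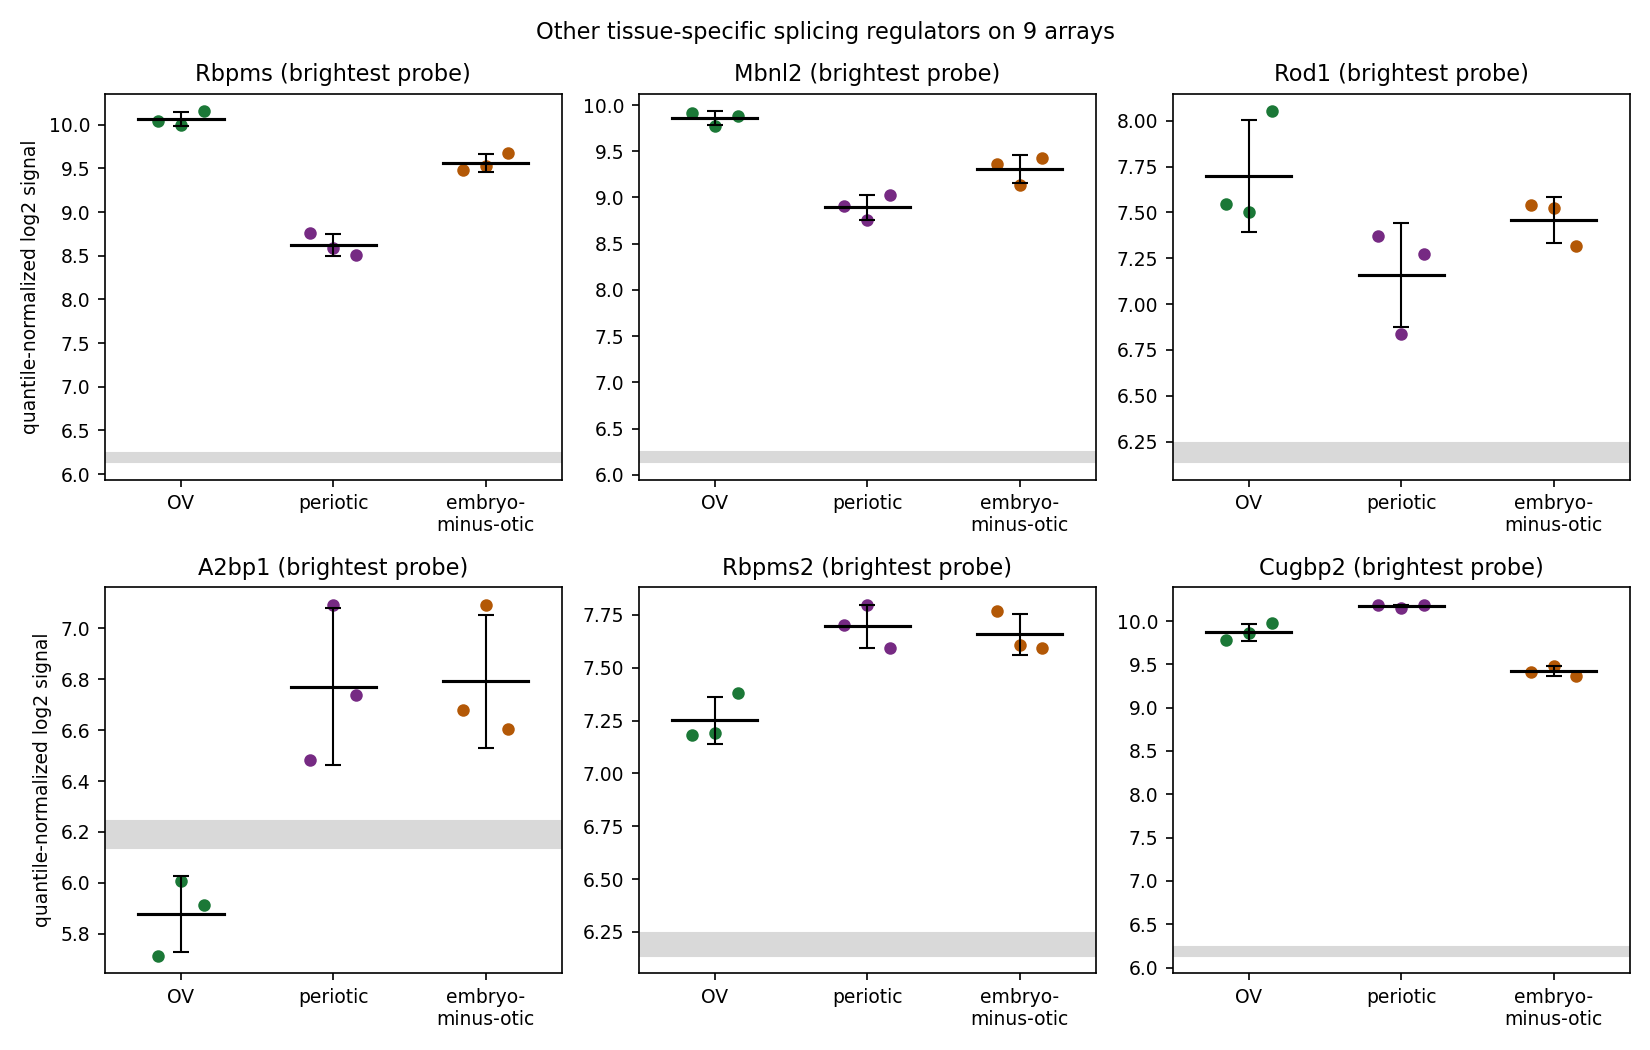
Quantile-normalized log2 signal (vertical axis, a separate scale in each panel) of the brightest probe of 6 other splicing regulators on the 9 arrays, with a point per array, the group mean as a horizontal line and the SD as the error bar (n = 3). The probes shown for *Rbpms* and *Mbnl2* are highest in OV, *A2bp1* lies below the grey band of lowest signals above background in OV, and *Cugbp2* is highest in periotic tissue.

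General splicing factors, the SR proteins and hnRNPs, bind most pre-mRNAs, and their counts are read against the whole-array shares given above. Of 23 probes for 13 SR protein genes, 1 was higher in OV than in periotic tissue and 2 were higher than in embryo-minus-otic tissue, all for *Srrm2*, a scaffold protein of the spliceosome. Its probe with the largest difference was 1.61-fold above periotic tissue (*q* = 0.00302) and 1.77-fold above embryo-minus-otic tissue (*q* = 0.000627). The other *Srrm2* probes gave no call against periotic tissue (*q* = 0.151, 0.291 and 0.0928). Against embryo-minus-otic tissue 2 *Srrm2* probes gave none (*q* = 0.459 and 0.247). Of 42 probes for 20 hnRNP genes, 1 for *Hnrph3* was lower in OV than in periotic tissue (1.499-fold, *q* = 0.0205) and 1 for *Syncrip* was higher than in embryo-minus-otic tissue (1.32-fold, *q* = 0.0382). The *Hnrph3* call was lost in 6 of 17 alternatives (*q* up to 0.151) and that of *Syncrip* in 9 of 17 (*q* up to 0.263), and *Syncrip* has 2 further probes that gave no call there. At an unadjusted p under 0.05 by limma, 3 SR probes and 9 hnRNP probes differed between OV and periotic tissue, and 8 and 5 between OV and embryo-minus-otic tissue. The median SR difference was 0.15 in the latter comparison. Between the non-otic groups, 2 SR probes were higher in periotic tissue, for *Sfrs1* (*q* = 0.0422) and *Sfrs3* (*q* = 0.00779), and 0 hnRNP probes were called, with 6 at an unadjusted p under 0.05 by limma. The other probe of *Sfrs1* and that of *Sfrs3* gave no call there (*q* = 0.66 and 0.0637).

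Transcripts known as targets of these regulators were read only as levels, since the probes do not separate exons kept from exons skipped. Among 11 probes for *Fgfr2*, *Cd44*, *Enah* and *Slc37a2*, whose splicing ESRP proteins control, 4 were above background on at least 1 array and none was called in any comparison, with 2, 1 and 1 at an unadjusted p under 0.05 by limma. The *Fgfr2* probe that was above background on all 9 arrays had means of 6.68 in OV, 6.96 in periotic tissue and 6.87 in embryo-minus-otic tissue (*q* = 0.157, 0.349 and 0.820). *Enah*, a regulator of actin, had 6.56, 6.16 and 6.14 in the same order (*q* = 0.077 and 0.0549 for OV against either). Among 4 probes for PTBP targets, 1 for the kinase gene *Src* was higher in OV than in periotic tissue (1.36-fold, *q* = 0.0275). That call was lost in 6 of 17 alternatives (*q* up to 0.398), the other *Src* probe gave none (*q* = 0.693), and those for *Flna* and *Pkm2* gave no call.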

How the data were processed

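RNA of each E10.5 pool was hybridized to 1 MouseRef-8 v2.0 beadchip array, 9 in all. The values deposited by the authors are mean probe intensities without normalization between arrays and a detection p-value per probe. No deposited table of fold changes was used. Signals were set to at least 1, which changed no value, put on the log2 scale and then quantile normalized across all 9 arrays. The 3 groups were fitted in one limma 3.58.1 model in R 4.3.3 on all 25697 probes, with Benjamini-Hochberg adjustment over all probes and a threshold of 0.05. Quantile normalization and the fit were run on data simulated with independent noise, in which only probes above background on all 9 arrays were shifted. Dim probes, bounds, the epithelial-minus-neural difference and the promoter search were not part of that check. Where a group had no array above background, the fold Δ is a bound. Precision is limited by the 3 arrays of each group.

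The members, gene lists and tests were chosen with earlier results of these data known, *Rbm35a* among them, so only *Rbm35a* was left without a test. Named genes were all member probes, all target transcripts, *Nova2*, *Rod1*, *Elavl1* and up to 3 called probes per list, direction and OV comparison. *Sfrs1*, *Sfrs3*, *Stmn2*, *Neurod1*, *Isl1*, *Pou4f1*, *Hes5*, *Sox21* and the pan-epithelial genes were named after their values were seen. Array symbols were matched to RefSeq names on GRCm38.p6, and all 10 members matched. Promoter windows come from the same release. Tried as alternatives were median or no normalization, neqc (offset 16), a filter on dim probes, fits of 2 groups, array weights, an intensity trend in the prior, a replicate block and leaving out each array.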

Additional observations from a re-analysis of the deposited data

How the results depend on the processing

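The differences of *Elavl3* and of *Elavl4* probes 1 and 2 between OV and periotic tissue passed the threshold in all 17 alternatives, as did those of *Elavl3* and *Elavl4* probe 1 between the non-otic groups. Of 6 member probes called between OV and periotic tissue, 3 were called with neqc and 3 with median normalization, and 3 to 7 when 1 array was left out. The 1 call between OV and embryo-minus-otic tissue became 0 with median normalization, 2 without normalization, 3 in a fit of only these 2 groups, and 1 to 2 when 1 array was left out. The 4 calls between the non-otic groups became 2 with median normalization and 3 to 6 when 1 array was left out. The epithelial-minus-neural difference between OV and periotic tissue was 4.76 (4.758) and moved to 5.402 with neqc, with a range of 4.538 to 4.931 when 1 array was left out. *Rbm35a* in that comparison moved from 4.02 to 4.38 with neqc. Without *Rbm35a* that difference could not be computed, since no epithelial probe remained. The cause of these changes was not tested.

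Between OV and embryo-minus-otic tissue, probes without a call changed sign. *Elavl2* probe 1 (-0.107) became 0.07135 with median normalization and -0.2634 to 0.09535 when 1 array was left out, *Elavl2* probe 2 (-0.122) became 0.04664 and -0.2993 to 0.001092, and *Ptbp1* probe 2 (-0.142) ranged from -0.2635 to 0.06932 when 1 array was left out. Of the values of 18 named differences of other regulators and factors, run on the same alternatives by a choice made after seeing the data, 257 kept their call, 49 lost it and 0 changed sign.

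Correlations of deviations were all positive for same-numbered pools, 0.011 to 0.234, and ran from -0.192 to 0.0637 for pools of different numbers. The labels do not tie a number to a litter, so the numbers were not taken as pairs. Every pool correlated best with its own number between OV and periotic tissue, as a hint from the data, but not in the other comparisons. With the replicate number as a block the calls were 6, 2 and 6 in place of 6, 1 and 4. Signal near background limits *Ptbp2*, *Qk* and *Elavl4* probe 3.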
